A study of Mus musculus with 2 samples.

Results

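The genes of this report are 10 members of the TGF-beta and PDGF systems, selected by symbol from the 32285 genes counted in each library of a mouse kidney single cell RNA sequencing (scRNAseq) study. They are the TGF-beta ligands Tgfb1, Tgfb2 and Tgfb3, their receptors Tgfbr1 and Tgfbr2, the PDGF ligands Pdgfa and Pdgfb, their receptors Pdgfra and Pdgfrb, and Itgb6, the integrin beta chain that helps to release TGF-beta from its latent form. All 10 symbols were present in the table, and all 10 had UMIs, the molecular identifiers that count single transcripts, in both libraries.

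There were 2 libraries, both from wildtype male C57BL/6J mice aged 19 weeks. The control library was made from a contralateral kidney that had not been injured, and the ischemia library from a kidney that underwent 27 min of ischemia followed by 24 h of reperfusion. Per the study's methods each library came from a single kidney. The control came from an animal whose other kidney was injured, so it is not a kidney of an animal without surgery. With 1 library per condition there was no replicate and no test between conditions. Every interval below is a 95% interval that covers counting error only.

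After filtering, 12586 control and 13116 ischemia cells remained of 30367 deposited barcodes, with a median of 3839 and 2138.5 UMIs each. The libraries shared 58 kept barcodes. Clusters were named from marker genes, and "-like" is used throughout because no annotation by the authors was used. The 13 named populations held 13598 cells, or 52.9%. The largest are proximal tubule (PT), thick ascending limb (TAL), distal convoluted and connecting tubule (DCT-CNT), collecting duct principal cell (CD-PC), endothelial cell (EC), pericyte and vascular smooth muscle cell (pericyte/VSMC) and macrophage. No cluster was named fibroblast. The pericyte/VSMC-like class, of 537 cells, also holds a sub-cluster of 182 cells with the fibroblast genes Dcn and Col3a1 among its leading genes. Most of the cells outside the named populations lay in an unnamed cluster of 10505 shallow cells. The labels were checked with 2 kidney injury genes. Havcr1, which encodes kidney injury molecule-1, was at 7.15 CPM (UMI counts scaled to a common total, the usual CPM scale) in control and 417 CPM in ischemia PT-like cells, and Lcn2, which encodes the injury marker NGAL, at 427 and 5260 CPM in TAL-like cells. The marker lists were highest in the cells named for them. For example, the 6 TAL markers summed to 22308 CPM in control and 9229 CPM in ischemia TAL-like cells, against 831 and 424 CPM in all other cells. In ischemia, the intercalated cell (IC) markers Slc4a1 and Aqp6 and the thin limb marker Sptssb were at 0 in the cells named for them. The IC-like cluster, of 103 cells, was led by Slc26a4, while Aqp6 was among the leading genes of the CD-PC-like cluster. At a higher clustering resolution a further cluster of 186 cells, led by Aqp6 and with Slc4a1 among its leading genes, was named IC. The IC-like class used here thus need not hold all intercalated cells, and the CD-PC-like class may hold some.

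TGF-beta ligands are secreted bound to a latency peptide, and integrins that hold the beta chain encoded by Itgb6 pull on a short arginine-glycine-aspartate stretch of that peptide to free the ligand. The free dimer first binds the type II receptor, encoded by Tgfbr2, which then recruits and activates the type I receptor, encoded by Tgfbr1, and Smad proteins carry the signal to the nucleus. PDGF-A and PDGF-B dimers bind tyrosine kinase receptors on stromal cells. PDGF-A binds the alpha receptor and PDGF-B binds both, and endothelial PDGF-B is known for recruiting pericytes to vessels. In the kidney both systems are best known for their part in fibroblast activation and fibrosis after injury.

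The integrin-binding stretch differs among the 3 ligands, and is shown because it ties Itgb6 to Tgfb1 and Tgfb3. The lines give coding sequence of the GENCODE transcripts Tgfb1-201, of 390 codons, and Tgfb3-201, of 412 codons, 5′ to 3′, with the codons for arginine, glycine and aspartate in capitals. These are codons 244 to 246 of Tgfb1 and 261 to 263 of Tgfb3, counted from 1 at the start codon.
Tgfb1: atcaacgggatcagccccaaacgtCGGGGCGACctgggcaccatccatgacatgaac
Tgfb3: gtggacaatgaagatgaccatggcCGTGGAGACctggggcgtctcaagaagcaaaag
The coding sequences of both annotated Tgfb2 forms, of 414 and 442 codons, held 0 such runs.

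On the GRCm38 build, Tgfb1 lies on the plus strand at chr7:25687002-25705077 and Tgfb2 on the minus strand at chr1:186622792-186705989. The promoters of these ligands are shown because Tgfb1 rose in macrophage-like cells while Tgfb2 fell in EC-like cells. Each line is the 150 bases before the RefSeq start on GRCm38.p6, 5′ to 3′ on the gene's strand. Capitals mark the core of a GC box, GGGCGG, read on both strands, and the TATA box, searched as TATAAA on both strands. The GC box core and the TATA box cannot overlap each other.
Tgfb1, chr7:25686852-25687001, plus strand: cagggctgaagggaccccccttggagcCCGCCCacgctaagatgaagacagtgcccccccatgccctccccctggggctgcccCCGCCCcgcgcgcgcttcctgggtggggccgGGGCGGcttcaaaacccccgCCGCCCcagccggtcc
Tgfb2, chr1:186705990-186706139, minus strand: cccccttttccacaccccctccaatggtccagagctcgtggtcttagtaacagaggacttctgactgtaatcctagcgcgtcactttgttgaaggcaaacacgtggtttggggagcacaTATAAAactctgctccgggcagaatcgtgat
The Tgfb1 window was 76% G or C and held 4 GC box cores and 0 TATA boxes, and the Tgfb2 window was 51.3% G or C and held 1 TATA box and 0 GC box cores. Of all 32851 windows of this length, 28.6% held a GC box core and 7.57% a TATA box by these letters. A match is a description of these letters and not a sign that a factor binds there. Of the 10 members, 7 had a promoter entry in the RefSeq table used.

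The tubule populations held most of the differences between libraries that reached 2-fold. Levels in CPM are UMIs of a gene scaled to the total UMIs of a population's cells, and a ratio is the ischemia level over the control level, given where the libraries together held at least 20 UMIs of the gene. With no test available, "rose" and "fell" are used for ratios of at least 2-fold up or down.

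In PT-like cells 3 of 8 members with enough UMIs rose (Tgfb1, Pdgfa and Pdgfb) and 0 fell, where 8.44% of all 15337 genes rose and 4.73% fell. In TAL-like cells 7 of 7 rose, against 9.74% of all genes up and 8.44% down. The DCT-CNT-like cells had 5 of 6 members up and 0 down, against 8.34% and 6.28% of genes. The CD-PC-like cells had 3 of 7 up (Tgfb1, Pdgfb and Itgb6) and 0 down, against 7.32% and 6.05%. In the CD-PC-like cells with no macrophage or EC marker UMI these 3 ratios were 1.88, 1.97 and 1.96, under 2-fold. That of Tgfb2, 1.79 over all CD-PC-like cells, was 2.17 there. In these 4 tubule populations the share of members that rose was above that of all genes, and the median log2 ratio of the members was 0.56, 1.64, 1.52 and 0.94 where that of all genes was 0.12, 0.10, 0.09 and -0.01. The members were chosen with earlier results of these data known, so the comparison is a description.

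Outside the tubule the members moved both ways. Of 8 members in EC-like cells 1 rose (Pdgfa) and 2 fell (Tgfb2 and Pdgfrb), against 2.91% of genes up and 4.85% down. The Pdgfrb ratio there was 0.406 (0.137 to 1.09), from 13 UMIs in 3 control cells and 7 UMIs in 7 ischemia cells, and with the mean of single-cell CPM it was 2.78, the opposite direction. Of 10 in pericyte/VSMC-like cells 1 rose (Tgfbr1) and 0 fell, against 3.44% and 3.94%. Of 7 in macrophage-like cells 1 rose (Tgfb1) and 1 fell (Tgfbr1), against 6.79% and 7.71%. Over all kept cells 2 of 10 rose, Tgfb1 and Pdgfa, and 0 fell, where 10.1% of 18925 genes rose and 4.77% fell. With 7 to 10 members per population, 1 gene up or down is too few to set against those shares.

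**Figure D1:**
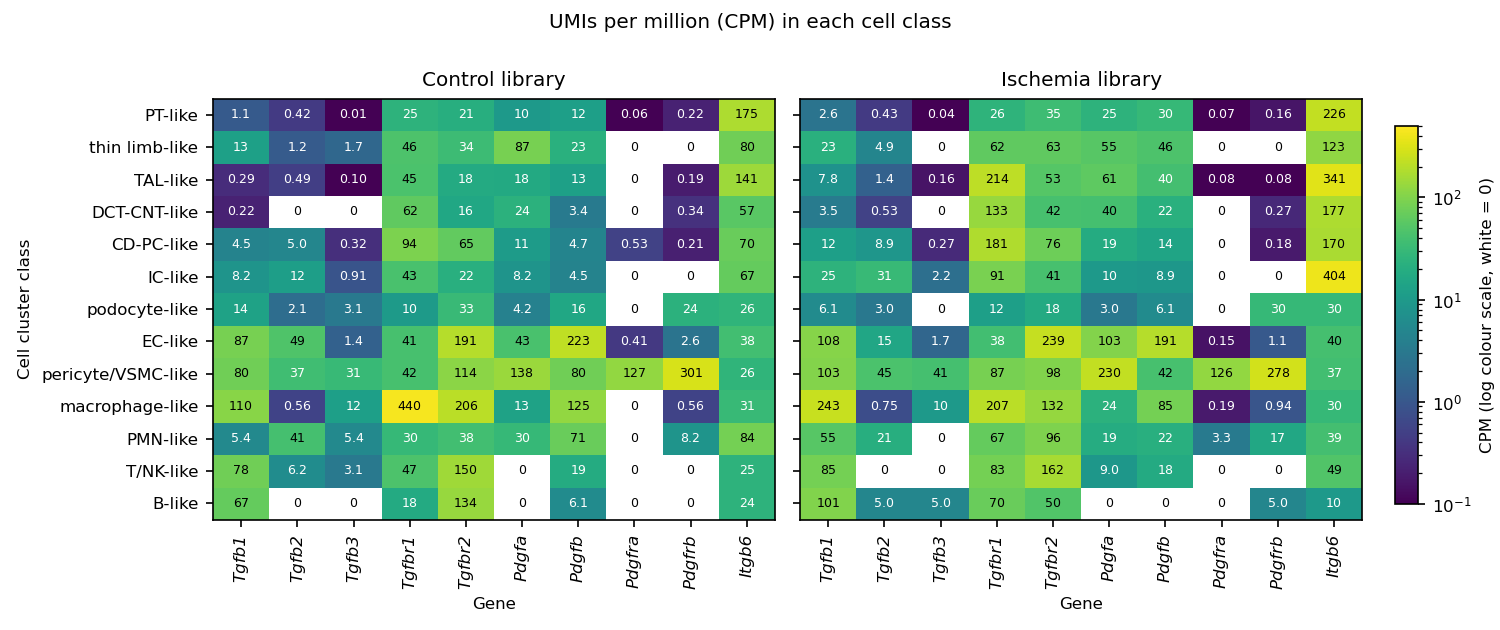
Level of each of the 10 genes (columns) in each named cell population (rows) in the control library (left) and the ischemia library (right), as CPM on a log colour scale, with white for 0. Pdgfra and Pdgfrb stand out in the pericyte/VSMC-like row alone at 126 CPM and above, while Itgb6 is highest in the tubule rows.

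**Figure D2:**
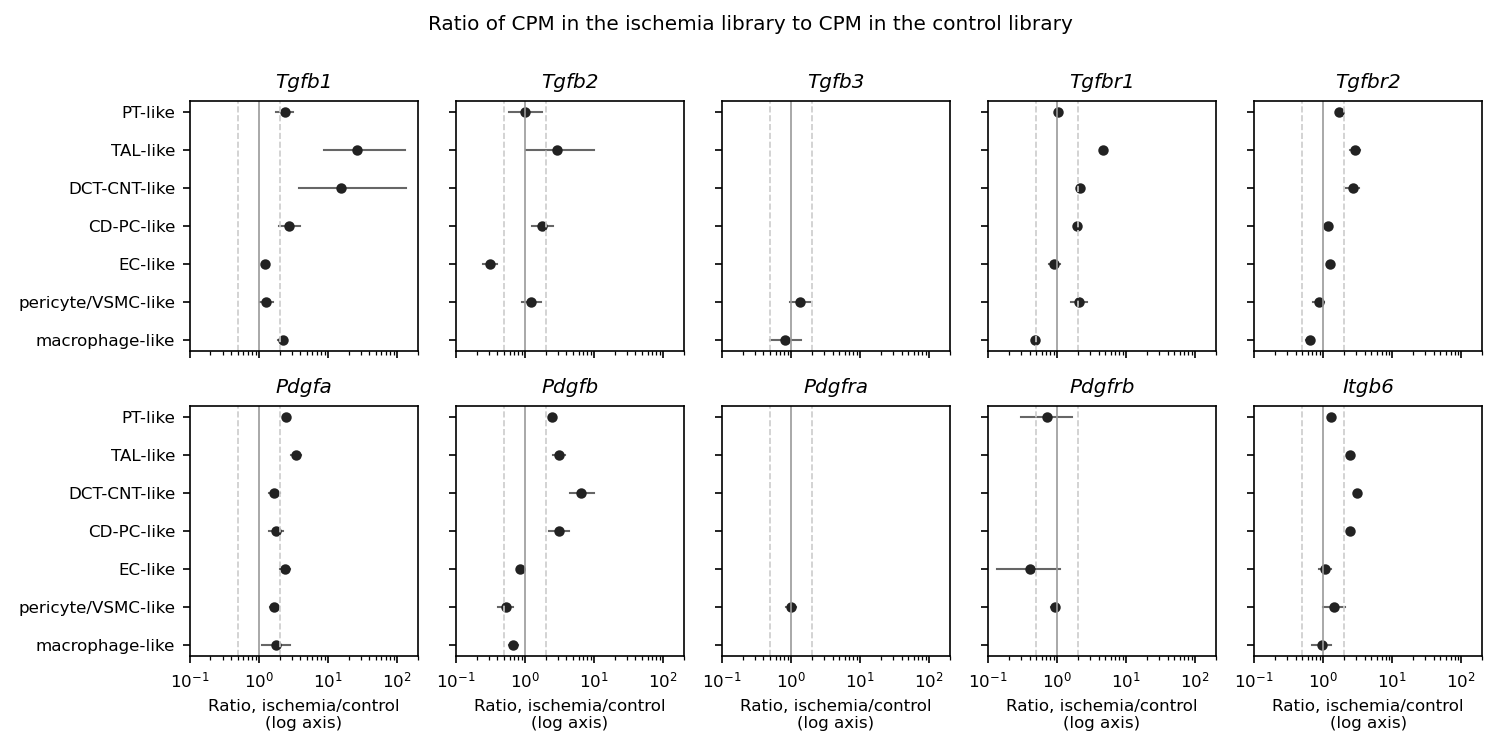
Ratio of the ischemia CPM to the control CPM (log axis) for each gene in 7 cell populations, with lines for exact 95% counting intervals, drawn only where the 2 libraries held at least 20 UMIs together. The solid line marks a ratio of 1 and the dashed lines 2-fold up and down, and the TAL-like row lies right of the upper dashed line for all 7 genes shown there.

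Tgfb1, detected in each named population of both libraries, was highest in leukocytes, endothelium and stroma. In the control library its level was 110 CPM in macrophage-like cells, 86.8 CPM in EC-like cells, 79.9 CPM in pericyte/VSMC-like cells and 78.0 CPM in T/NK-like cells, and the intervals of neighbours in this order overlapped. Tubule cells were low, at 0.224 CPM in DCT-CNT-like cells and 1.10 CPM in PT-like cells. After ischemia the macrophage-like cells stood apart from the rest at 243 CPM.

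The macrophage-like ratio was 2.21 (1.90 to 2.58), from 197 and 1297 UMIs. EC-like cells went from 86.8 to 108 CPM, a ratio of 1.24 (1.10 to 1.41), and pericyte/VSMC-like cells from 79.9 to 103 CPM, a ratio of 1.29 (1.05 to 1.59). Neither of the latter reached 2-fold. Because macrophage-like cells also grew from 288 to 574 cells, their share of all Tgfb1 UMIs went from 19.7% to 43.7%, while that of EC-like cells went from 42.9% to 23.8%. The share of macrophage-like cells with a Tgfb1 UMI was 42.7% in control and 72.5% in ischemia, at median depths of 5559.5 and 8628 UMIs. Thinned to 1000 UMIs per cell it was 9.93% and 20.2%, against 0 of 496 control TAL-like cells, which allows up to 0.605%, and 0.410% of ischemia TAL-like cells.

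Tgfb1 also rose in tubule populations, from very low levels. In TAL-like cells there were 3 UMIs in control and 98 in ischemia, or 0.292 and 7.77 CPM, a ratio of 26.6 (8.85 to 131). In DCT-CNT-like cells 2 and 26 UMIs gave 0.224 and 3.46 CPM, a ratio of 15.5 (3.87 to 134). In CD-PC-like cells the level was 4.46 and 12.3 CPM (ratio 2.75, 1.93 to 3.99), and in PT-like cells 1.10 and 2.61 CPM (ratio 2.37, 1.81 to 3.13). These levels remained well under those of macrophage-like cells.

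Markers of cells that carry much Tgfb1 moved with these tubule values. In TAL-like cells the 9 macrophage markers summed to 4.67 CPM in control, with 8 of them detected, and to 16.8 CPM in ischemia, with 9 detected, which is 0.0401% and 0.132% of their sum in macrophage-like cells. The 8 EC markers summed to 11.0 and 28.6 CPM. In the TAL-like cells with no UMI of any of these markers, 378 of 498 control and 243 of 490 ischemia cells, Tgfb1 was at 0.268 CPM from 2 UMIs and at 5.60 CPM from 30 UMIs, a ratio of 20.9 (5.31 to 181). The same restriction left a ratio of 2.38 in PT-like cells and took that of CD-PC-like cells to 1.88, under 2-fold.

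Within the macrophage-like cells, Tgfb1 was higher in sub-clusters 2 and 5 than in the C1q-rich cells of sub-cluster 1. Sub-cluster 1, led by Ccl8, C1qa and C1qc and holding 192 control and 166 ischemia cells, had 104 CPM in control and 162 CPM in ischemia (ratio 1.56, 1.25 to 1.96). Sub-cluster 2, led by Chil3, Fn1, Thbs1 and Arg1, held 8 control but 251 ischemia cells and had 347 CPM in ischemia. So the rise over all macrophage-like cells goes along with a change in their make-up, and within sub-cluster 1 the ratio was under 2-fold. Sub-cluster 4, led by Klrd1, Ccr7, Clec9a and Flt3, had 73.7 and 125 CPM. Sub-cluster 5, led by Ace and Cd300e, was at 476 CPM (311 to 698) from 10 control cells and 364 CPM (283 to 461) from 27 ischemia cells, and its interval overlapped that of sub-cluster 2 in both libraries.

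Among the 7 populations compared, Tgfb2 was the only TGF-beta ligand to fall, and did so in endothelium. In EC-like cells it was at 48.7 CPM (240 UMIs) in control and 15.3 CPM (100 UMIs) in ischemia, a ratio of 0.314 (0.246 to 0.398). Of the control EC-like UMIs, 189 of 240 came from sub-cluster 4, led by Mgp, Aqp1, Fbln5 and Cldn5, with 103 control and 119 ischemia cells. There the level was 151 CPM in control and 42.1 CPM in ischemia, a ratio of 0.279 (0.210 to 0.366), so the fall is present in a sub-cluster that both libraries share. In sub-cluster 1, made of 62 control and 626 ischemia cells, it was 37.3 and 4.34 CPM. The EC-like sub-clusters 2, 3 and 6 have several tubule genes among their leading genes, such as Slc12a3 and Calb1 in sub-cluster 2, which held 531 control and 20 ischemia cells. Without these 3 sub-clusters Tgfb2 was at 102 and 16.9 CPM, a ratio of 0.165. That ratio compares unlike mixes of EC-like cells. Sub-cluster 1 supplied most of the remaining ischemia cells but not most of the remaining control cells.

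Elsewhere Tgfb2 was at 36.8 and 45.3 CPM in pericyte/VSMC-like cells (ratio 1.23, 0.903 to 1.69) and at 4.996 and 8.92 CPM in CD-PC-like cells (ratio 1.79, 1.25 to 2.59). In the 58 control and 45 ischemia IC-like cells 13 and 28 UMIs gave 11.8 and 31.3 CPM, a ratio of 2.65 (1.33 to 5.57). In pericyte/VSMC-like cells the ratio was 1.09 without the sub-cluster led by EC genes that is described with Pdgfb. TAL-like cells held only 5 and 18 UMIs, for a ratio of 2.94 (1.05 to 10.1), and averaging the CPM of single cells gave 0.616, the opposite direction. Over all kept cells the level was 3.46 CPM in each library, so opposite differences in single populations did not show in the whole kidney.

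Tgfb3 was a gene of the stroma. Pericyte/VSMC-like cells held 55.8% of its UMIs in control and 55.2% in ischemia, at 30.9 and 41.2 CPM (ratio 1.33, 0.955 to 1.87). Macrophage-like cells followed at 12.3 and 10.1 CPM (ratio 0.824, 0.494 to 1.42), and no ratio reached 2-fold where it could be given. In stroma the level was highest in sub-cluster 2, led by the smooth muscle genes Cnn1 and Pln, at 84.7 and 79.2 CPM. Sub-cluster 4, led by Higd1b, had 36.5 (15.8 to 72.0) and 50.3 (30.7 to 77.7) CPM. Its intervals overlapped those of sub-cluster 2 in both libraries. The fibroblast-gene sub-cluster was at 6.01 and 10.9 CPM. In macrophage-like cells nearly all Tgfb3 came from sub-cluster 1, at 20.2 and 30.9 CPM, where all 22 of the control UMIs and 51 of 54 ischemia UMIs lay.

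Itgb6 was highest in tubule populations. Podocyte-like cells, also epithelial, were at 26.2 and 30.4 CPM, and the 33 control PMN-like cells at 84.4 CPM. In control Itgb6 was at 175 CPM in PT-like cells, 141 CPM in TAL-like cells, 79.5 CPM in thin limb-like cells, 70.5 CPM in CD-PC-like cells, 67.2 CPM in IC-like cells and 57.2 CPM in DCT-CNT-like cells. PT and TAL were each above the next population beyond their intervals, whereas the thin limb, CD-PC and IC values overlapped. In ischemia the order changed, with TAL-like cells at 341 CPM above PT-like cells at 226 CPM.

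The named distal populations rose and PT did not reach 2-fold. The ratio was 2.41 (2.27 to 2.56) in TAL-like cells, 3.10 (2.80 to 3.44) in DCT-CNT-like cells, 2.41 (2.20 to 2.64) in CD-PC-like cells and 1.29 (1.26 to 1.32) in PT-like cells. In cells with no macrophage or EC marker UMI it was 2.44 in TAL-like and 2.86 in DCT-CNT-like cells. In such CD-PC-like cells it was 1.96 (1.75 to 2.20), under 2-fold. IC-like cells went from 67.2 to 404 CPM, a ratio of 6.02 (4.67 to 7.83), with only 45 cells in ischemia. In these IC-like cells the EC markers went from 18.2 to 155 CPM, and the part of other cells in the value was not tested. The share of TAL-like cells with an Itgb6 UMI was 81.5% and 91.6%, and 11.7% and 28.9% after thinning, against 3.19% and 2.84% of macrophage-like cells.

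Droplets hold some free RNA, and PT markers in other populations measure how much PT RNA they hold. This measure also counts RNA of cells led by PT genes, such as those in EC-like and macrophage-like sub-clusters. In the distal tubule Itgb6 stood far above that measure, and outside the tubule it lay near it in some populations and not in others. In EC-like cells of the control library the 18 PT markers summed to 26.1% of their level in PT-like cells and Itgb6 stood at 21.6% of its level there. In macrophage-like cells the pair was 19.6% and 17.8%, and in podocyte-like cells 14.6% and 15.0%. In TAL-like cells PT markers were at 7.92% and Itgb6 at 80.6%. In ischemia the TAL-like pair was 4.99% and 151%, the DCT-CNT-like pair 4.29% and 78.6% and the CD-PC-like pair 3.93% and 75.2%, while EC-like cells had 18.8% and 17.7%. The T/NK-like pair was 34.9% and 14.2% in control and 25.5% and 21.9% in ischemia. In PMN-like cells of the control library, 33 in number, it was 15.1% and 48.1%, and in B cell-like cells of the ischemia library 20.8% and 4.45%.

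The Itgb6 UMIs outside the tubule were not spread evenly. Macrophage-like cells were at 29.8 CPM in ischemia, where sub-cluster 3, led by PT genes, stood at 161 CPM and held 77 of 159 UMIs, and sub-cluster 1 stood at 9.09 CPM. EC-like cells were at 37.9 and 40.04 CPM, and the PT-gene sub-cluster 6 held 88 of 187 control UMIs in 39 cells, at 153 CPM. Without EC-like sub-clusters 2, 3 and 6 the level was 12.3 and 18.3 CPM. The part of free RNA and of the PT-gene cells in these values was not tested.

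**Figure D3:**
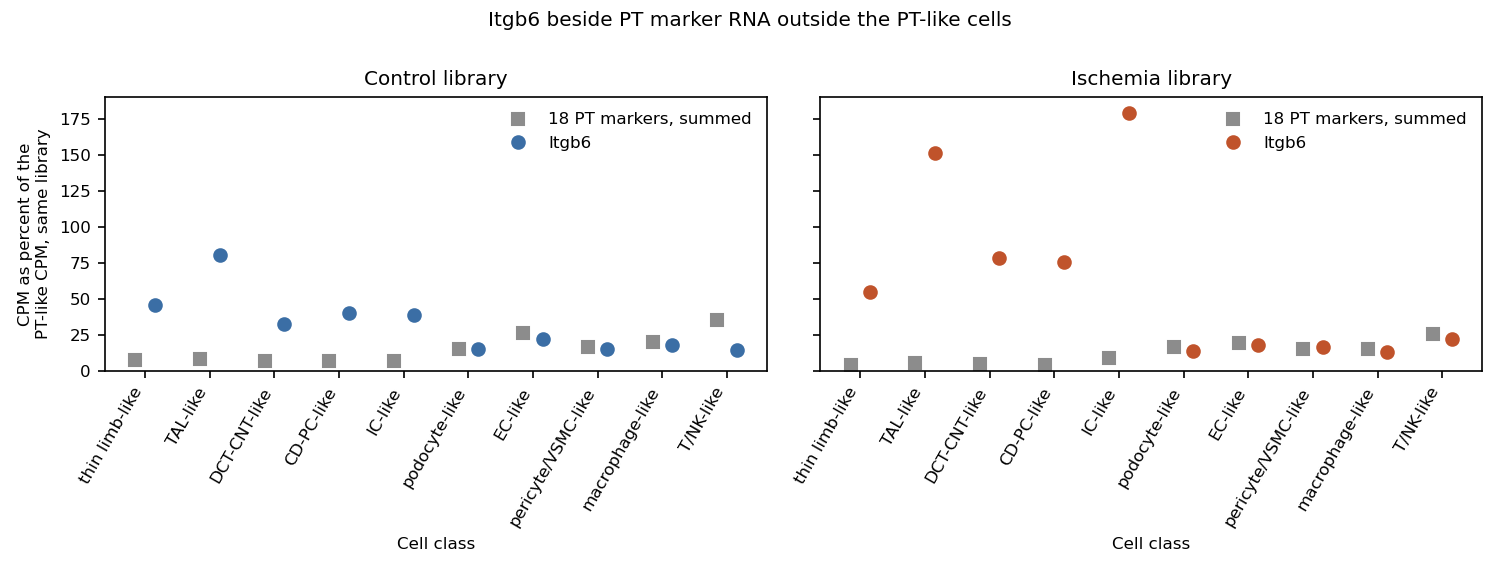
Itgb6 (circles) and the sum of 18 PT marker genes (squares) in named cell populations outside PT, as percent of the PT-like CPM in the same library, control on the left and ischemia on the right. PMN-like and B cell-like cells are not drawn. Circles and squares lie close together in podocyte-like, EC-like, pericyte/VSMC-like and macrophage-like cells, and the Itgb6 circles lie far above the squares in the TAL-like, DCT-CNT-like, CD-PC-like and IC-like cells.

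Within the PT-like cells, the level of Itgb6 depended on the sub-cluster. In sub-cluster 2, shared by 633 control and 518 ischemia cells, it was 269 and 427 CPM (ratio 1.59, 1.50 to 1.69). The leading genes of sub-cluster 2 include Gm26917, Snhg11 and Malat1 and no PT marker, so they do not place it in a PT segment. Sub-cluster 5, with the early PT genes Slc5a12 and Gatm, had 176 and 279 CPM, and sub-cluster 6, with the late PT genes Slc7a13 and Slc22a6, had 192 and 276 CPM. The 2 sub-clusters led by injury genes came almost entirely from the ischemia library. Sub-cluster 3, led by Lgals3, S100a6 and Havcr1, stood at 221 CPM in its 996 ischemia cells, and sub-cluster 4, led by Lcn2 and Clu, at 95.1 CPM in its 909. None of the ratios within these shared sub-clusters reached 2-fold.

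Tgfbr1, the type I receptor, fell in macrophage-like cells and rose in the distal tubule. It was at 440 CPM (788 UMIs) in control and 207 CPM (1107 UMIs) in ischemia macrophage-like cells, a ratio of 0.472 (0.430 to 0.518). TAL-like cells went from 45.4 to 214 CPM, a ratio of 4.70 (4.26 to 5.20), the highest of this gene in any population. DCT-CNT-like cells went from 62.0 to 133 CPM (2.15, 1.94 to 2.39) and pericyte/VSMC-like cells from 42.1 to 87.2 CPM (2.07, 1.59 to 2.72). So macrophage-like cells, far above all others in control, were level with TAL-like cells in ischemia.

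CD-PC-like cells stood at 94.3 and 181 CPM, a ratio of 1.92 (1.77 to 2.08) just under 2-fold. PT-like cells were at 25.02 and 25.6 CPM (1.02, 0.956 to 1.09) and EC-like cells at 41.4 and 37.6 CPM (0.909, 0.752 to 1.10). After thinning, the share of TAL-like cells with a Tgfbr1 UMI was 3.43% in control and 17.6% in ischemia, and that of macrophage-like cells 27.0% and 16.3%. The shares before thinning were 46.8% and 84.3%, and 69.8% and 53.8%. The thinned and unthinned shares had the same direction as the levels in both populations, but with thinned counts the macrophage-like ratio was 0.625, which is no longer 2-fold.

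The macrophage-like ratio differed by sub-cluster. Sub-cluster 1 went from 628 to 356 CPM (0.567, 0.507 to 0.634), which is not 2-fold. Sub-cluster 4 went the other way, from 99.2 to 178 CPM (1.79, 1.21 to 2.72). Sub-cluster 2, nearly all ischemia cells, was at 141 CPM. Sub-cluster 3, whose leading genes are those of PT, went from 245 to 77.3 CPM in 37 and 75 cells (0.315, 0.203 to 0.483), a larger fall than over all macrophage-like cells. Without sub-cluster 3 the ratio over the class was 0.469.

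**Figure D4:**
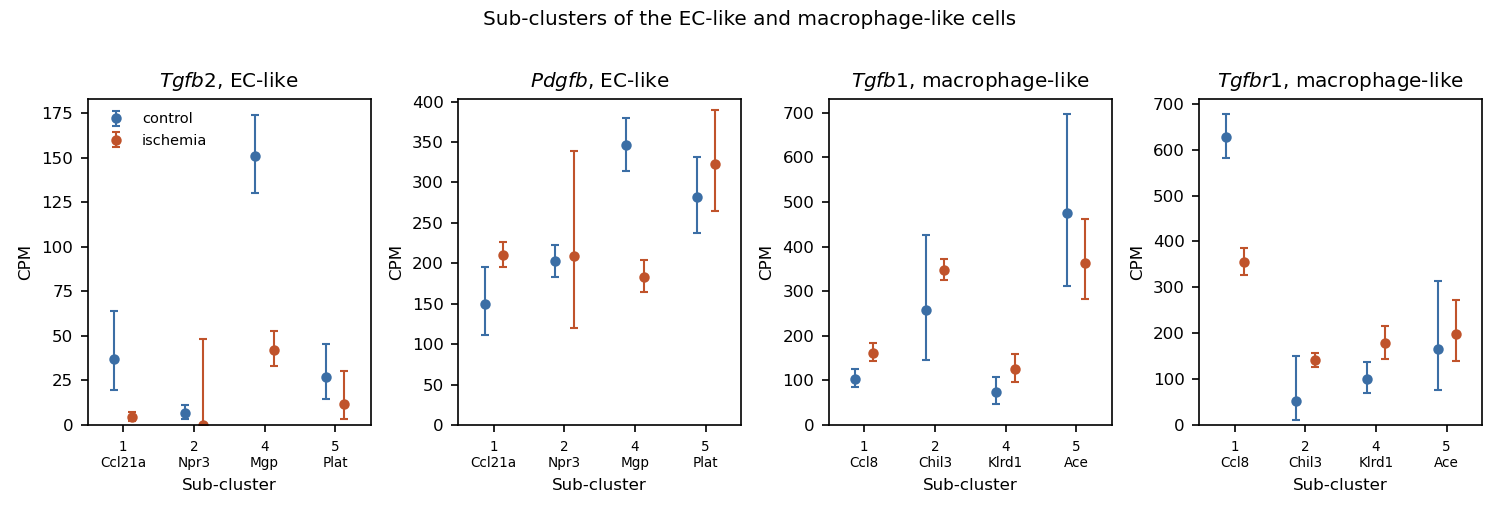
CPM of Tgfb2 and Pdgfb in sub-clusters of EC-like cells, and of Tgfb1 and Tgfbr1 in sub-clusters of macrophage-like cells, in the control and ischemia libraries, with exact 95% counting intervals and linear axes from 0; EC-like sub-clusters 3 and 6 and macrophage-like sub-cluster 3, led by tubule genes, are left out, and EC-like sub-cluster 2 also has tubule genes among its leading genes. Sub-cluster 4 of the EC-like cells carries the fall of Tgfb2 from 151 to 42.1 CPM, and macrophage-like sub-cluster 1 the highest Tgfbr1, at 628 and 356 CPM.

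Tgfbr2, the type II receptor, was highest in EC-like, macrophage-like and T/NK-like cells. The control levels were 206 CPM in macrophage-like cells, 191 CPM in EC-like cells and 150 CPM in T/NK-like cells, and the intervals of neighbours overlapped. In ischemia EC-like cells stood alone at the top with 239 CPM (ratio 1.25, 1.15 to 1.36), and macrophage-like cells were at 132 CPM (0.640, 0.563 to 0.728). Neither ratio reached 2-fold, and the EC-like sub-clusters 1, 4 and 5 lay between 185 and 270 CPM in both libraries. Without the EC-like sub-clusters 2, 3 and 6 the EC-like ratio was 1.33, between unlike mixes of the remaining cells.

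In the tubule Tgfbr2 rose in TAL-like cells from 18.4 to 53.0 CPM (2.89, 2.45 to 3.41) and in DCT-CNT-like cells from 15.8 to 42.1 CPM (2.66, 2.18 to 3.27). PT-like cells were at 20.7 and 35.1 CPM (1.70, 1.59 to 1.81) and CD-PC-like cells at 65.1 and 76.3 CPM (1.17, 1.06 to 1.30). TAL-like and DCT-CNT-like cells were thus the 2 of the 7 populations compared where both TGF-beta receptor genes rose. Podocyte-like cells had 31 and 6 UMIs, 32.5 and 18.2 CPM, with a ratio of 0.561 and an interval from 0.191 to 1.36 that holds both directions.

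Pdgfa, the alpha receptor's ligand, was highest in pericyte/VSMC-like cells and rose in EC-like and tubule cells. Its level in pericyte/VSMC-like cells was 138 CPM (259 UMIs) in control and 230 CPM (559 UMIs) in ischemia, a ratio of 1.67 (1.44 to 1.94). Thin limb-like cells were next in control at 87.1 CPM and stood at 54.97 CPM in ischemia (0.631, 0.497 to 0.802), from 90 and 79 cells. They were the only tubule population with a lower level in ischemia, and did not reach 2-fold.

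EC-like cells went from 43.0 to 103 CPM, a ratio of 2.39 (2.04 to 2.80). In EC-like sub-cluster 4 the level was 46.3 and 61.7 CPM (1.33, 0.960 to 1.86), under 2-fold, and in sub-cluster 1, made mostly of ischemia cells, 37.3 and 142 CPM. Without EC-like sub-clusters 2, 3 and 6 the ratio was 2.87, between unlike mixes of the remaining cells. In the tubule the ratio was 3.43 (2.92 to 4.06) in TAL-like cells, at 17.7 and 60.7 CPM, and 2.46 (2.25 to 2.69) in PT-like cells, at 10.1 and 24.8 CPM. DCT-CNT-like and CD-PC-like cells stayed under 2-fold, with ratios of 1.69 and 1.76. In TAL-like cells with no macrophage or EC marker UMI the ratio was lower, at 2.24 (1.81 to 2.79).

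Pdgfb was an endothelial gene in control and rose in all 4 large tubule populations. EC-like cells held 40.1% of its UMIs in control and 24.5% in ischemia, at 223 and 191 CPM (ratio 0.855, 0.788 to 0.928). Macrophage-like cells were at 125 and 85.3 CPM (0.682, 0.580 to 0.804). In DCT-CNT-like cells the gene rose from 3.36 CPM (30 UMIs) to 22.2 CPM (167 UMIs), a ratio of 6.62 (4.47 to 10.1), the highest of any PDGF gene with at least 20 UMIs.

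The other tubule ratios of Pdgfb were 3.11 (2.56 to 3.802) in TAL-like cells, 3.10 (2.20 to 4.43) in CD-PC-like cells and 2.45 (2.27 to 2.66) in PT-like cells, which reached 39.6, 14.5 and 30.4 CPM in ischemia. PT-like cells came to hold 40.7% of all Pdgfb UMIs, against 32.3% in control. In cells with no macrophage or EC marker UMI the ratios were 5.13 in DCT-CNT-like, 3.08 in TAL-like and 2.64 in PT-like cells, and 1.97 in CD-PC-like cells, under 2-fold. In these cells the Pdgfb ratio thus stayed past 2-fold in DCT-CNT-like, TAL-like and PT-like cells, and was lower than over all cells in DCT-CNT-like and CD-PC-like cells. A cell with no such marker UMI can still hold free RNA, and the part of other cells in the rise was not tested.

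In PT-like cells both PDGF ligands rose inside sub-cluster 2, which the libraries share but which has no PT marker among its leading genes. In sub-cluster 2, Pdgfa was at 6.87 and 19.6 CPM (2.85, 2.05 to 4.01) and Pdgfb at 16.4 and 44.98 CPM (2.73, 2.21 to 3.4). In sub-clusters 5 and 6 the ratios were 1.37 and 1.20 for Pdgfa and 1.35 and 1.22 for Pdgfb. In the injury-gene sub-clusters these ratios did not reach 2-fold upward. Sub-cluster 3 had Pdgfa at 26.9 CPM in 45 control cells and 28.2 CPM in 996 ischemia cells (1.05, 0.763 to 1.48) and Pdgfb at 46.9 and 33.1 CPM (0.706, 0.553 to 0.914). Sub-cluster 4 had Pdgfa at 41.5 CPM in 43 control cells and 21.0 CPM in 909 ischemia cells (0.506, 0.299 to 0.922). The level of both ligands in sub-cluster 3 was above that of control cells in sub-cluster 5, at 8.74 and 15.4 CPM, and the PT-like ischemia cells held far more cells of sub-clusters 3 and 4 than the control cells did.

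Endothelial Pdgfb differed by sub-cluster. In the Mgp-led sub-cluster 4, which also carried the fall of Tgfb2, it was 346 CPM in control and 183 CPM in ischemia, a ratio of 0.530 (0.458 to 0.613) just short of 2-fold. In sub-cluster 5, led by Plat and the glomerular endothelial gene Ehd3, it was 281 and 323 CPM (1.15, 0.886 to 1.48). Sub-clusters 1 and 2 were each drawn mainly from 1 library. In sub-cluster 1 the level was 149 CPM in 62 control cells and 210 CPM in 626 ischemia cells (1.41, 1.06 to 1.91). In sub-cluster 2 it was 202 CPM in 531 control cells. Without EC-like sub-clusters 2, 3 and 6, which have tubule genes in the lead, Pdgfb was at 298 and 208 CPM, a ratio of 0.700. The remaining cells were unlike mixes of sub-clusters in the 2 libraries. C1q-rich macrophage-like sub-cluster 1 stood at 180 and 176 CPM (0.974, 0.810 to 1.17), so the lower level over all macrophage-like cells was not seen inside it.

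In pericyte/VSMC-like cells Pdgfb appeared at 79.9 and 41.98 CPM (0.525, 0.404 to 0.680). Much of this came from sub-cluster 5 of the stroma, 11 control and 8 ischemia cells led by the EC genes Kdr, Egfl7 and Cdh5 with a median of 37993 UMIs, which held 102 of 150 and 44 of 102 of these UMIs. Without it the level was 32.8 and 27.4 CPM, a ratio of 0.836. The same cells held 87 of 150 and 76 of 251 of the stromal Tgfb1 UMIs, and without them Tgfb1 was at 43.0 and 82.7 CPM, a ratio of 1.92. EC markers in the whole class summed to 22.5% and 16.5% of their level in EC-like cells.

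Pdgfra, the alpha receptor, was almost confined to the stroma. Pericyte/VSMC-like cells made up 1.51% of kept UMIs in control and 1.89% in ischemia and held 90.5% (238 of 263) and 91.6% (307 of 335) of the Pdgfra UMIs. Each other named population had at most 5 UMIs in either library. The stromal level was 127 and 126 CPM, a ratio of 0.997 (0.839 to 1.19). Thin limb-like cells had 0 UMIs in both libraries, which allows up to 1.74 and 1.21 CPM.

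Pdgfrb, the beta receptor, was found mainly in the same cells and at a lower level in podocyte-like cells. Of its UMIs 88.4% in control and 89.8% in ischemia lay in pericyte/VSMC-like cells, at 301 and 278 CPM (0.923, 0.824 to 1.03). Podocyte-like cells had 24.1 CPM from 23 UMIs and 30.4 CPM from 10 UMIs (1.26, 0.535 to 2.75), and PT-like cells 0.223 and 0.161 CPM. Of the 23 control UMIs of podocyte-like cells, 13 lay in 5 cells. After thinning, 24.1% and 28.5% of pericyte/VSMC-like cells had a Pdgfrb UMI, against 0.0268% of control and 0 of 2748 ischemia PT-like cells, which allows up to 0.109%. PMN-like cells held 3 and 20 UMIs, 8.17 and 16.7 CPM (2.05, 0.608 to 10.8), and 14 of the 33 control and 18 of the 208 ischemia cells of that class left it at a higher clustering resolution. In the stroma as a whole neither PDGF receptor reached 2-fold. For Pdgfra the marker gate, which takes cells by UMIs of the marker list in place of clusters, gave a ratio of 3.07 from 4 and 26 UMIs, thinning gave 1.52 and a higher clustering resolution 1.44.

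The stromal sub-clusters divided the PDGF receptors. Sub-cluster 1, with the fibroblast genes Dcn, Col3a1, C7 and Mfap5 among its leading genes, had Pdgfra at 250 and 380 CPM (1.52, 1.18 to 1.99) and Pdgfrb at 223 and 313 CPM (1.41, 1.07 to 1.87). Sub-cluster 2, led by Cnn1 and Pln, had Pdgfra at 4.04 CPM and at 0, and Pdgfrb at 115 and 141 CPM. Sub-cluster 3, with Tnfsf8, Sfrp2 and the TAL marker Slc12a1 among its leading genes, carried both at 227 and 216 CPM of Pdgfra and 407 and 408 CPM of Pdgfrb. Sub-cluster 4, led by Higd1b, Ednrb and Ndufa4l2, had 0 UMIs of Pdgfra, which allows up to 13.7 and 7.54 CPM, and 452 and 460 CPM of Pdgfrb.

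The ligand Pdgfa was highest in sub-cluster 4, where the alpha receptor was not detected. Sub-cluster 4 stood at 507 and 646 CPM of Pdgfa (1.27, 1.02 to 1.61) and sub-cluster 2 at 125 and 246 CPM (1.97, 1.47 to 2.65). Sub-cluster 3, which carried Pdgfra, had 90.9 and 111 CPM of Pdgfa. Its interval overlapped that of sub-cluster 2 in control but not in ischemia. The fibroblast-gene sub-cluster 1 had 30.1 and 76.5 CPM, from 10 and 42 UMIs. Of 537 pericyte/VSMC-like cells, 104 held UMIs of both receptors, 235 of Pdgfrb alone, 40 of Pdgfra alone and 158 of neither. In sub-clusters 2 and 4, of 145 and 95 cells, 0 cells held both, which allows shares of up to 2.07% and 3.16%.

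Sub-cluster 1 also held the highest stromal ratios of Tgfb1 and Tgfbr1. Tgfb1 rose there from 48.1 to 178 CPM (16 and 98 UMIs, ratio 3.71, 2.17 to 6.74) and Tgfbr1 from 36.1 to 189 CPM (12 and 104 UMIs, ratio 5.25, 2.88 to 10.5). Tgfbr2 went the other way, from 220 to 124 CPM (0.564, 0.399 to 0.795), short of 2-fold. In the other stromal sub-clusters with no EC genes in the lead, Tgfbr1 lay between 28.7 and 54.5 CPM in control and between 46.1 and 62.9 CPM in ischemia. Of all Tgfbr1 UMIs in pericyte/VSMC-like cells, sub-cluster 1 held 12 of 79 in control and 104 of 212 in ischemia.

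**Figure D5:**
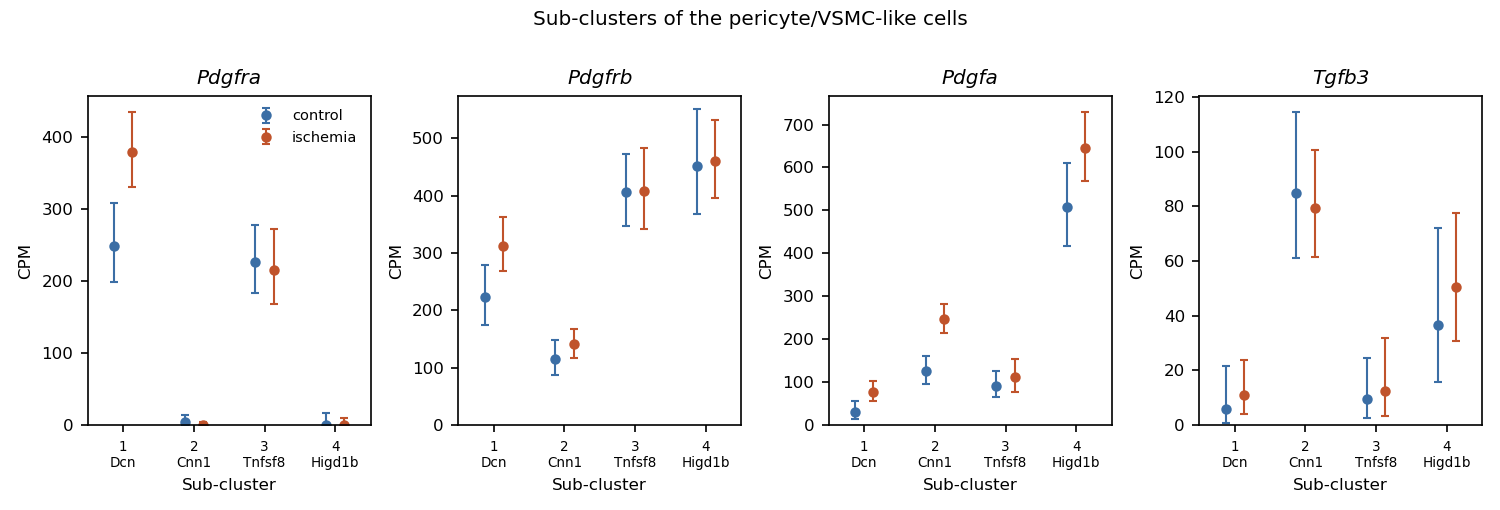
CPM of Pdgfra, Pdgfrb, Pdgfa and Tgfb3 in sub-clusters 1 to 4 of the pericyte/VSMC-like cells, named by a leading gene, in the control and ischemia libraries, with exact 95% counting intervals and linear axes from 0. Of these sub-clusters, 1 and 3 hold all Pdgfra UMIs apart from 2, Pdgfa peaks in sub-cluster 4 at 507 and 646 CPM and Tgfb3 in sub-cluster 2 at 84.7 and 79.2 CPM.

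The TAL-like values, and others of the tubule, depend on how the libraries were joined. Clustered with no integration, 456 of the 498 control TAL-like cells but only 7 of the 490 ischemia ones received that name, while 478 ischemia cells fell in a cluster that scored highest for TAL markers but had none among its 10 leading genes and so stayed unnamed. The cluster named TAL held 821 control and 13 ischemia cells, and its ratios were 0.991 for Itgb6, 0.912 for Tgfbr2 and 0 for Pdgfb, opposite in direction to those above. In the ischemia TAL-like cells as used here, the TAL markers stood at 9229 CPM against 424 CPM in other cells. Other tubule populations also changed with no integration. A cluster of 66 control and 1392 ischemia cells, with Havcr1 among its leading genes, scored highest for PT markers but stayed unnamed. A cluster with both Aqp2 and Slc12a3 in the lead stayed unnamed too, and none was named CD-PC. Of 28 ratios past 2-fold in the named populations, 24 kept the direction and 14 the side of 2-fold.

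Of 40 other genes of both pathways, the TGF-beta targets rose most often. They are Ccn2 (connective tissue growth factor), Tgfbi, Col1a1, Fn1, Timp1 (an inhibitor of matrix metalloproteases) and Id1, and all of them also respond to other signals. In PT-like cells 5 of 6 rose, in TAL-like cells 3 of 4 with enough UMIs, in DCT-CNT-like cells 2 of 3, in CD-PC-like cells 2 of 4, in EC-like cells 3 of 5, in pericyte/VSMC-like cells 3 of 6 and in macrophage-like cells 4 of 5, and 0 fell. Of all genes, 8.44%, 9.74%, 8.34%, 7.32%, 2.91%, 3.44% and 6.79% rose in these populations in the same order. In TAL-like cells Ccn2 went from 12.1 to 103 CPM and Timp1 from 0.875 to 100 CPM. In pericyte/VSMC-like cells Col1a1 went from 134 to 393 CPM and Timp1 from 34.1 to 386 CPM, while Ccn2 was at 677 and 443 CPM. Col1a1 and Timp1 are among the leading genes of the fibroblast-gene sub-cluster 1 of this class. Their levels in single sub-clusters were not taken. Fn1 is among the leading genes of macrophage-like sub-cluster 2. Col1a1, Fn1 and Timp1 are also among the targets that rose in PT-like cells. None of the 40 genes was taken in tubule cells with no macrophage or EC marker UMI. The part of other cells and of free RNA in their tubule values was not tested.

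Among the genes of latency and activation, the integrin gene Itgav rose in both DCT-CNT-like and TAL-like cells and Thbs1 in macrophage-like, stromal and EC-like cells. In TAL-like cells Itgav, the alpha chain that pairs with the product of Itgb6, rose from 128 to 432 CPM and Itgb8, another partner of Itgav, from 80.5 to 188 CPM. Itgav also rose in DCT-CNT-like cells, from 129 to 463 CPM, and was at 77.9 and 96.1 CPM in PT-like cells. Thbs1, a matrix protein that can activate TGF-beta, rose in macrophage-like cells from 19.0 to 473 CPM and in pericyte/VSMC-like cells from 27.2 to 165 CPM, and is among the genes that lead macrophage-like sub-cluster 2. Ltbp2, a latent TGF-beta binding protein, went from 6.92 to 42.4 CPM in pericyte/VSMC-like cells. In the latency list as a whole 0 of 9 rose in PT-like cells, 3 of 6 in TAL-like cells, 2 of 6 in DCT-CNT-like cells, 1 of 7 in CD-PC-like cells with 1 down, 1 of 9 in EC-like cells, 4 of 9 in pericyte/VSMC-like cells and 1 of 5 in macrophage-like cells. Set against the shares of all genes just given, 1 gene of 5 to 9 is too few to read. The 4 in pericyte/VSMC-like cells include Itgb8. Without the EC-gene sub-cluster described with Pdgfb its ratio there was 1.69 (1.20 to 2.43), under 2-fold.

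Receptors, Smad genes and PDGF signalling genes reached 2-fold less often than the targets in most populations. Eng, an endothelial TGF-beta co-receptor, fell in pericyte/VSMC-like cells from 442 to 219 CPM. Without the EC-gene sub-cluster described above it was at 188 and 119.5 CPM, a ratio of 0.634 (0.533 to 0.755), which is not 2-fold. In EC-like cells Eng was at 735 and 730 CPM. Eng rose in CD-PC-like cells, where the co-receptor gene Tgfbr3 fell. Tgfbr3 rose in DCT-CNT-like cells and Bambi, another gene of this list, in macrophage-like cells. Of 11 Smad genes and inhibitors, Tgif1, a repressor of Smad signalling, rose in 6 of the 7 populations, in TAL-like cells from 13.4 to 55.5 CPM. The exception was the macrophage-like cells, at 40.2 and 45.0 CPM. Smad3, a carrier of the TGF-beta signal, rose in TAL-like cells from 44.0 to 98.7 CPM and in DCT-CNT-like cells from 21.6 to 60.2 CPM. Smad6, an inhibitory Smad, fell in TAL-like cells from 26.4 to 10.4 CPM. Among the 5 PDGF signalling genes only Pik3r1, a regulatory subunit of PI 3-kinase, rose, in PT-like cells from 35.5 to 87.2 CPM and in TAL-like cells from 99.9 to 342 CPM. Of the other PDGF ligands and the proteases that activate them, Plat, tissue plasminogen activator, rose in all 4 large tubule populations. In TAL-like cells it went from 3.01 to 8.64 CPM, where the 8 EC markers went from 11.0 to 28.6 CPM. Plat is among the leading genes of EC-like sub-cluster 5, and the part of other cells in its rise was not tested. Plau, urokinase, rose in DCT-CNT-like cells from 3.14 to 49.2 CPM. The ligand gene Pdgfd was at 161 and 109 CPM in TAL-like cells, and neither it nor Pdgfc reached 2-fold in any of the 7 populations.

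Over the whole list of 40, 8 of 39 genes rose in PT-like cells, 10 of 34 in TAL-like cells, 9 of 31 in DCT-CNT-like cells, 6 of 35 in CD-PC-like cells, 5 of 38 in EC-like cells, 8 of 39 in pericyte/VSMC-like cells and 6 of 33 in macrophage-like cells. In the same order 0, 1, 0, 2, 0, 1 and 0 fell. Without the EC-gene sub-cluster, 7 of 39 rose and 0 fell in pericyte/VSMC-like cells. Each share of rising genes was above the share of all genes that rose in that population, and the median log2 ratio of the list in TAL-like cells was 0.34 against 0.10 for all genes. In EC-like cells these medians were -0.01 and -0.02. As with the members, a gene with few control UMIs could enter these counts only through a higher ischemia level. The list and its parts were chosen with earlier results of these data known, so these comparisons with all genes are descriptions.

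The genes whose levels over 22 groups, the named populations of at least 50 cells in each library, ran most like each member were found by Pearson's correlation of log2(CPM + 1). The groups share 2 libraries, so the values are descriptions. They also pool the stromal sub-clusters, so a high r does not place 2 genes in the same stromal cells. Pdgfra itself was at 4.04 CPM and at 0 in stromal sub-cluster 2, led by the smooth muscle genes Cnn1 and Pln. The nearest genes for Pdgfra were Myocd (r = 0.997), Npy1r and Kcna5, and for Pdgfrb C1s1 (r = 0.982), a complement gene, Vstm4 and the collagen gene Col1a2. For Tgfb1 they were Chic2 (r = 0.939), Rap1b and Fxyd5, for Tgfb2 Mir100hg (r = 0.928), Efnb2 and Mmp16, and for Tgfb3 Olfml3 (r = 0.907), Itga8 and Hdac9. For Tgfbr1 they were Acer3 (r = 0.841), Mthfd2 and Grk3, the lowest leading value of the 10, and for Tgfbr2 Swap70 (r = 0.926), Prkch and Bst2. For Pdgfa they were Tnks1bp1 (r = 0.855), Arhgef40 and Homer3, for Pdgfb Grasp (r = 0.859), Cmtm3 and Clic4, and for Itgb6 Tmem238 (r = 0.898), Acadl and Tacc2.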

How the data were processed

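The libraries were prepared with droplet 3′ chemistry (labelled v2) from enzyme-digested whole kidneys. Per the labels and the study's methods, the authors deposited raw UMI counts per gene and barcode, made with Cell Ranger 7.0.0 on mm10. These counts are not normalized. The annotation release and whether intronic reads were counted are not given in the sources used here, so UMIs of a gene that overlaps another on the same strand could be shared. Of the members, this holds for Pdgfb and Pdgfra, each of which contains 1 microRNA gene.

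Barcodes with 200 or more genes, UMIs from 500 up to 150000 and mitochondrial UMIs no higher than 55% were kept, as in the study. The kept cells carried 124679362 control and 128733541 ischemia UMIs. They were clustered with Seurat 5.3.0 (R 4.3.3), following the study's steps, with 2000 variable genes, anchor integration, 30 principal components, resolution 0.3 and seed 42. The 10 members and 41 pathway genes were left out of the variable genes. A cluster was named from 16 marker lists if at least 3 markers were detected with 10 or more UMIs each, at least 1 marker was among its 10 leading genes by fold and no other list had more there. Of 18 clusters 16 were named. Scrublet (scanpy 1.11.5) called 2 control and 0 ischemia doublets, too few to have worked, so no cells were removed as doublets, and an alternative left out the 8% with the highest scores, 1050 and 1149 cells.

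UMIs were summed per population and library and scaled to CPM with Python 3.11.15, numpy 2.4.6, scipy 1.17.1 and pandas 2.3.3, and plotted with matplotlib 3.10.9. Intervals at 95% are exact Poisson for levels, exact conditional binomial for ratios and Clopper-Pearson for shares, and a count of 0 is given the limit of 3 counts. Low counts widen these intervals. For shares of cells with a UMI, each cell was thinned to 1000 UMIs and shallower cells were left out. The ratio and thinning steps were tested on simulated data. No test was run between conditions.

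The members, gene lists, marker lists and rules were chosen with earlier results of these data known. Of the pathway list 1 gene is not reported here, and the counts are over the other 40. Genes named in the text are the members, the fixed pathway list, the 2 injury genes, the 3 nearest patterns of each member and genes that lead sub-clusters. The mRNA and protein assays of the study were not analysed here. The alternatives were 25% mitochondrial UMIs, at least 1000 UMIs, resolution 0.6, no integration, members and pathway genes among the variable genes, high doublet scores left out, the mean of each cell's CPM, thinning, and a gate of 3 marker UMIs in place of clusters. Another took shares with unnamed clusters left out. There were 3 further kinds chosen after seeing the data, which left out sub-clusters led by genes of another cell type, EC-like sub-clusters 2, 3 and 6, and tubule cells with any macrophage or EC marker UMI.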

Additional observations from a re-analysis of the deposited data

Results flagged for a closer look

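Among populations of at least 50 cells in each library, 6 ratios of ischemia to control CPM were past 2-fold in one direction while the same gene was past 2-fold the other way in another population. For Tgfb2 the ratio was 2.94 in TAL-like cells, from 5 and 18 UMIs, and 0.314 in EC-like cells, from 240 and 100 UMIs. For Tgfbr1 it was 4.70 in TAL-like cells, 2.15 in DCT-CNT-like cells and 2.07 in pericyte/VSMC-like cells, and 0.472 in macrophage-like cells. With 1 library per condition, these differences between populations were not tested.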

How the results depend on the processing

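No paired analysis was possible because each condition has 1 library. The alternatives gave 770 values of 81 ratios, of which 646 lay within the counting interval of the ratio as reported, 116 lay outside it and 8 turned a ratio past 2-fold to the other side of 1. Of all, 719 kept the direction and 704 the side of 2-fold. With no integration the ratio was 0.874 for Tgfb1 in PT-like cells, 0.912 for Tgfbr2, 0 for Pdgfb and 0.991 for Itgb6 in TAL-like cells. The marker gate gave 0 for Pdgfb in CD-PC-like cells. With the mean of each cell's CPM it was 0.616 for Tgfb2 in TAL-like cells, 2.78 for Pdgfrb in EC-like cells and 0.864 for Pdgfrb in PMN-like cells. In the population with the highest level of each gene, further values lay outside the interval. For Tgfbr1 in macrophage-like cells they were 0.382 with the gate and 0.625 with thinning, which ends the 2-fold call. For Itgb6 in TAL-like cells they were 2.15 at 25% mitochondrial UMIs, 2.05 with the gate and 2.72 with thinning. For Pdgfb in EC-like cells they were 0.700 without EC-like sub-clusters 2, 3 and 6, 0.977 with the mean and 1.04 with thinning. In pericyte/VSMC-like cells Tgfb2 was at 0.770 with the mean and Pdgfa at 1.33 with the gate. Pdgfra there was at 1.44 at resolution 0.6, 3.07 with the gate and 1.52 with thinning. Pdgfrb was at 1.24 at resolution 0.6, 1.07 with the gate, 1.05 without mixed sub-clusters, 1.14 with the mean and 1.20 with thinning. The causes were not tested, except that the marker gate, no integration and the settings that leave out sub-clusters used other cells. Resolution 0.6 gave 25 clusters and no integration 19, with 37.8% of cells named. Depth limits the genes with few tubule UMIs, among them Tgfb2, Tgfb3, Pdgfra, Pdgfrb and Tgfb1 in control, and populations under 50 cells.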

Other observations

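The smaller and unnamed populations were compared as well. In T/NK-like cells, 100 control and 123 ischemia cells, Tgfbr2 was at 150 and 162 CPM and Tgfb1 at 78.0 and 85.4 CPM, with ratios of 1.08 and 1.09. The 39 B cell-like cells of each library had Tgfbr2 at 134 CPM from 22 UMIs and 50.3 CPM from 10 UMIs, a ratio of 0.376 (0.159 to 0.827). In IC-like cells Tgfbr1 was at 42.7 and 90.5 CPM, a ratio of 2.12 (1.46 to 3.10). PMN-like cells, 33 and 208 in number, had Tgfb1 at 5.45 CPM from 2 UMIs and 55.3 CPM from 66 UMIs. The ratio was 10.1 (2.70 to 85.5). Of these cells, 14 control and 18 ischemia ones left the class at a higher clustering resolution. The control class also held Itgb6 at 84.4 CPM, and the part of other cells in the Tgfb1 ratio was not tested. The shallow unnamed cluster, with median depths of 896 and 797 UMIs, held Itgb6 at 101 and 133 CPM and Pdgfb at 10.8 and 27.5 CPM, a ratio of 2.56 (1.90 to 3.48). Its 18 PT markers stood at 82.7% and 98.3% of their level in PT-like cells. The other unnamed cluster, of 1599 cells, scored highest for TAL markers and had the DCT-CNT markers Pvalb, Klk1 and Calb1 among its leading genes. It had Tgfbr1 at 24.7 and 50.2 CPM and Tgfbr2 at 13.8 and 28.1 CPM. Pdgfa was at 11.5 and 28.9 CPM and Pdgfb at 4.48 and 19.4 CPM. Each of these genes had a ratio past 2-fold upward, as did Tgfb1 from 4 and 16 UMIs. Itgb6 was at 60.4 and 99.3 CPM, a ratio of 1.65 (1.41 to 1.92), under 2-fold. The Tgfbr1 ratio was 2.03 there, against 4.70 in TAL-like cells.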
